A study of Mus musculus with 6 samples.

Results

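Interferon-stimulated genes are the genes that cells switch on when interferon binds its receptors, and 44 of them, given as a fixed list of mouse gene symbols, were followed over all 6 arrays of a study of muscle-derived stem cells (MDSC). A gene was found through any probe whose RefSeq accession maps to its symbol. By that rule 43 of the 44 had at least 1 probe (Ifi205 had none), 58 probes in all, and 42 were bright enough to be tested among 25057 genes and unnamed features. The gene left untested was Rsad2. MDSC are the slowest adhering fraction, preplate 6, of cells freed by collagenase from whole hindlimb muscle, here at passage 1 and about 70% confluent, after growth in fetal bovine and horse serum with chick embryo extract. They came from male mice 5 weeks old, in 2 isolations from wild-type (WT) mice and 2 from mice that the labels call Mstn null; Mstn encodes myostatin, an inhibitor of muscle growth. The third group was W4, a male line of mouse embryonic stem cells (ESC), at passage 12 and passage 15. Total RNA of the 6 cultures, from 0.5 ug each, was hybridised with Cy3 to 1-colour Agilent arrays. How many mice went into an isolation is not given in the labels, and the ESC arrays are passages of 1 line, so every p-value measures the spread between 2 arrays a group.

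Interferons are secreted proteins. Type I interferon (alpha and beta) and type III interferon (lambda) signal through JAK kinases to a complex that holds Stat2 and Irf9 and binds a promoter sequence called the interferon-stimulated response element (ISRE), while type II interferon (gamma) acts through the gamma-activated site (GAS). The products detect, degrade or block viral RNA and DNA, tag proteins with the ubiquitin-like protein Isg15, coat intracellular vacuoles with GTPases, and raise the cell's own capacity to signal. Embryonic stem cells are known for a weak interferon response.

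Levels are log2 signals set relative to the 75th percentile of their own array, so 0 is the 75th percentile of that array and 1 unit is a doubling; levels are compared between arrays for 1 gene, not between genes. The scanner software's own flag put 53.3% to 64.6% of the 59305 non-control spots of an array above background, and 0 spots were saturated. The Mstn probe did not fall on the arrays labelled Mstn-null: it read -4.90 and -6.71 in the WT isolations, below the background limit, and -3.06 and -2.47, above it, in those labelled Mstn-null. Where in the gene that probe lies is not given in the sources used here, so genotype is used below only as labelled. Among the muscle markers Pax7 and Myf5 did not pass the background flag in both arrays of a group, while Myog, Acta1 and Myh3 passed it on all MDSC arrays. The 10 pluripotency markers all passed the flag in ESC, at each passage. On the MDSC arrays 7 and 6 of them passed it in the WT isolations and 6 and 6 in those labelled Mstn-null. In the test of MDSC against ESC given below 9 were lower in MDSC and 1, Nanog, higher, against 31.4% and 28.3% of all features. The median of the 10 differences was -10.1, against -0.028 over all features, and that of Nanog, the only one above 0, was 0.56. Pou5f1, Zfp42 and Fgf4 passed the flag on no MDSC array. A marker that passed it on MDSC arrays could still be far below its ESC level, as Esrrb was, with means of -3.12 and 5.93. Nanog read -0.07 and -0.18 in the WT isolations, -0.20 and -0.15 in those labelled Mstn-null and -0.77 and -0.66 in ESC. The 2 WT arrays shared 1 slide and the other 4 arrays another, so an effect of slide cannot be told apart from WT genotype. In bulk RNA, fewer cells of a type and less RNA per cell cannot be told apart.

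Between MDSC and ESC the interferon-stimulated genes differed in both directions, with more of them higher in MDSC. In the comparison of all 4 MDSC arrays with the 2 ESC arrays (limma on log2 levels, Benjamini-Hochberg over all 25057 features, called at an adjusted p under 0.05), 14 of the 42 tested genes were higher in MDSC, against 28.3% of all features, and 3 were lower, against 31.4%. The 14 were Irf7, Ifih1, Dhx58, Ifi204, Ifi211, Herc6, Trim30a, Ifit2, Ifit3, Eif2ak2, Ifi35, Rtp4, Samd9l and Irgm1, and the 3 were Irf1, Oas3 and Gbp2b. The other 25 did not pass. The median difference of the 42 was 1.24, against -0.028 over all features, and 33 of the 42 values lay above 0, against 49.1% of all features. That median was 0.65 without WT isolation 1 and 0.61 over the 29 genes above background on all arrays. The share called higher was thus close to that of all features, and the standard errors were wider: their median was 0.61 for the 42 and 0.21 for all features. The 14 became 22 without WT isolation 2 and 6 without ESC passage 15, and the 3 became 7 without WT isolation 1, 1 without ESC passage 12 and 1 without ESC passage 15. On the second slide alone, which sets the arrays labelled Mstn-null against ESC, Ifi204, Herc6, Irgm1, Irf1, Oas3 and Gbp2b were not called, and with no filter on dim probes Dhx58, Ifi204, Rtp4 and Irgm1 were not.

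**Figure D1:**
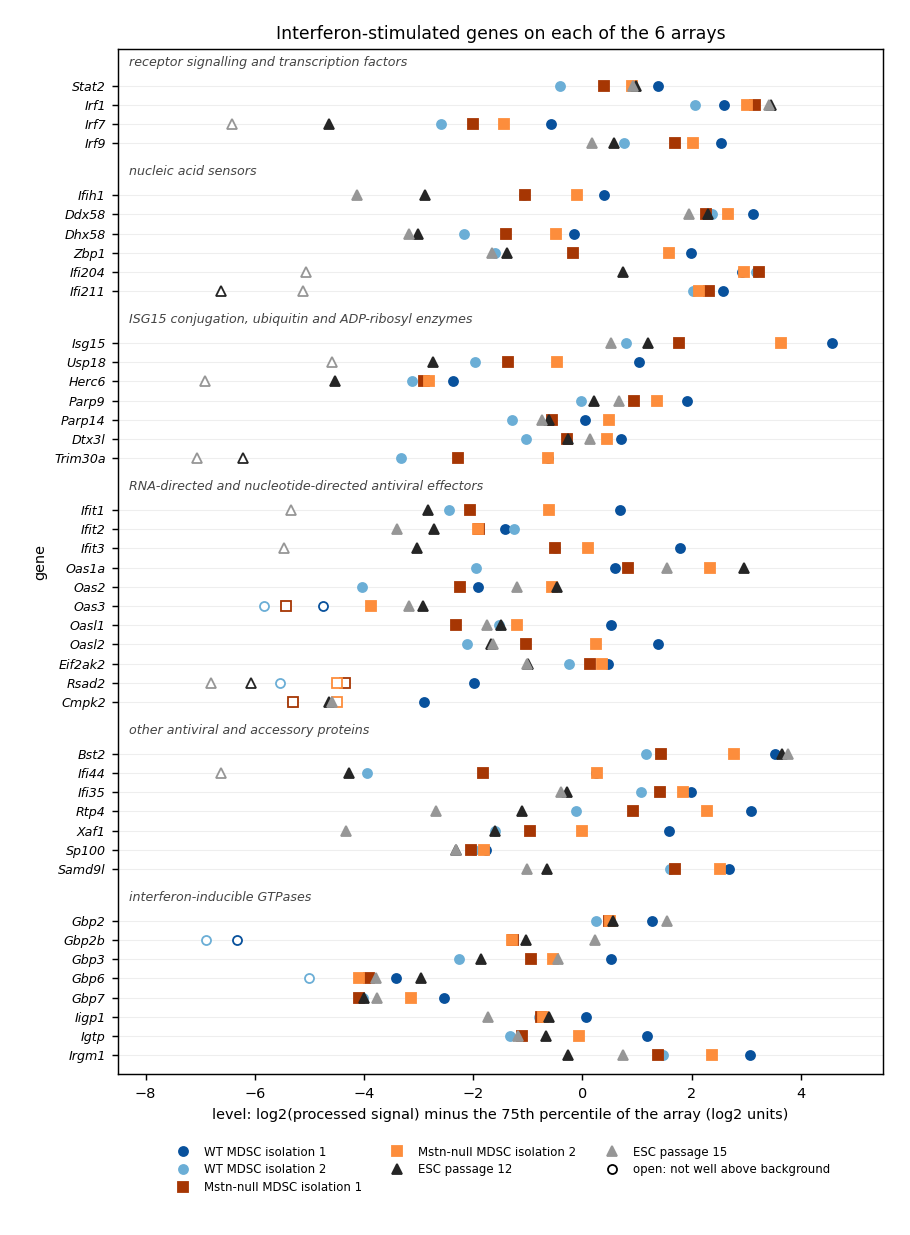
Level of each of the 43 genes with a probe on each of the 6 arrays, on the horizontal axis in log2 units relative to the array's 75th percentile, with the genes on the vertical axis grouped by role. Filled points are well above background and open points are not; WT MDSC isolation 1 is the right-most MDSC array for most genes, and Gbp2b stands open and far left on both WT arrays.

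The promoters of these genes were searched for the elements that interferon signalling acts on. RefSeq windows of 300 bases, 250 before to 50 after the transcription start on GRCm38.p6, were listed for 34 of the 44 genes. The ISRE was searched as GAAA, any 2 bases and GAAA again, and the GAS as TTCNNNGAA, on both strands. At least 1 window held an ISRE in 20 of the 34 genes, or 58.8%, against 3.99% of the 27025 genes in the table, and a GAS in 8 of them, or 23.5%, against 9.55%. Both were found in 5 of their windows and overlapped in 1. By role the ISRE was in all 6 listed GTPase genes and all 4 listed sensors, 6 of 10 effectors and 1 of 6 accessory genes. Since a response element is part of what defines such genes, this describes the list. The sequences below are those of the 4 called genes with an ISRE and the largest differences, 5′ to 3′ on the gene's strand, with the ISRE match in capitals; a match is a run of letters and not a shown binding site. They lie at chr1:173912997-173913296 (minus strand) for Ifi211, with the match starting at position -37 from the start; chr7:104446076-104446375 (minus strand) for Trim30a, with the match at position 2; chr19:34583279-34583578 (plus strand) for Ifit3, with 2 matches, the first at position -156; and chr3:142594597-142594896 (plus strand) for Gbp2b, with the match at position -137.
Ifi211: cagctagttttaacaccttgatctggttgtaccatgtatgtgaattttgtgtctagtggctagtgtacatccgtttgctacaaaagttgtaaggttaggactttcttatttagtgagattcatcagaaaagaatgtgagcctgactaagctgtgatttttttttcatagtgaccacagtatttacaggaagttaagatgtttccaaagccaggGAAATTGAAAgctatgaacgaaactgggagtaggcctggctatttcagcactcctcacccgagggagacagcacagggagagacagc
Trim30a: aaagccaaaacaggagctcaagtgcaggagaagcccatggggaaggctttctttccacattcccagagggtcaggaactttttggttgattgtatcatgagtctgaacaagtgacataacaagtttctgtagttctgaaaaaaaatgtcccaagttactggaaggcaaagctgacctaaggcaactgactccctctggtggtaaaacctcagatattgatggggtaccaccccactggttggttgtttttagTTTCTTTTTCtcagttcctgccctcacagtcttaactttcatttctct
Ifit3: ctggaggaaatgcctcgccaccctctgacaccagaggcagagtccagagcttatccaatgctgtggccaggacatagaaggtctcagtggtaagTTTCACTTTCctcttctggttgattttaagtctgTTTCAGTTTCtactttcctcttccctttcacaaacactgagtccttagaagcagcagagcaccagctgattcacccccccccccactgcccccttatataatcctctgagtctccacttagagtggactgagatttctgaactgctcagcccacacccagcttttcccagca
Gbp2b: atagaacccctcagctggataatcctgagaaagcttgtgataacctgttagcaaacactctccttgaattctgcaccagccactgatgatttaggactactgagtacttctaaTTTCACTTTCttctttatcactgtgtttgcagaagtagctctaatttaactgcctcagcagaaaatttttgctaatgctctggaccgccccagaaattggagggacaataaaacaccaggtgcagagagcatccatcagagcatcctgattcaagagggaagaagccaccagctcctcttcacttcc

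Of the transcription factors, Irf7, which amplifies the type I response, was higher in MDSC and Irf1, an early factor of the gamma response, was lower. Irf7 read -0.58 and -2.60 in the WT isolations, -2.00 and -1.43 in those labelled Mstn-null and -4.64 and -6.43 in ESC. All 4 MDSC arrays lay above both ESC arrays, of which passage 15 was below background, and the difference was 3.88 ± 0.76 (SE, 4 against 2 arrays; adjusted p = 0.0102), or 2.99 with adjusted p = 0.0572 without passage 15. Irf1 was at 2.60 and 2.06 in the WT isolations, 3.16 and 3.01 in those labelled Mstn-null and 3.46 and 3.41 in ESC. The MDSC arrays were all below the ESC arrays, by a small step: the difference was -0.73 ± 0.20 (adjusted p = 0.0283). That call ended without any one of the 4 arrays on the second slide (adjusted p 0.0661 to 0.103) and with each array centred on its median (-0.58, adjusted p = 0.0943). A second Irf1 probe was above background on 1 array only. Stat2 and Irf9, parts of the complex on the ISRE, did not pass, with differences of -0.38 ± 0.52 (adjusted p = 0.552) and 1.39 ± 0.52 (adjusted p = 0.0689). Irf9 passed without either WT array (adjusted p = 0.0307 without isolation 1 and 0.00589 without isolation 2), and Stat2 turned to 0.063 without WT isolation 2 and was called lower, at -0.83, without WT isolation 1.

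Among the nucleic acid sensors 4 of 6 tested were higher in MDSC and none was lower, against 28.3% and 31.4% of all features; 2 of them, Ifih1 and Ifi211, were called higher on each genotype's side. The clearest was Ifi211, a member of the PYHIN family of DNA-binding proteins encoded on chromosome 1. It read 2.58 and 2.03 in the WT isolations, 2.32 and 2.14 in those labelled Mstn-null and -6.63 and -5.13 in ESC. Neither ESC array was above background, so the difference is a bound: Ifi211 was at least 164-fold brighter in MDSC (MDSC mean against the lowest signal well above background on each ESC array, or the probe's own signal where higher; adjusted p = 0.000371). Ifi204, a related DNA sensor, gave 2.92 and 3.18 in the WT isolations, 3.24 and 2.97 in those labelled Mstn-null and 0.74 and -5.05 in ESC. Its MDSC arrays lay within 0.33 of each other, but the ESC passages were 5.79 apart, and the difference of 5.24 ± 1.59 (adjusted p = 0.0387) was not called without any one of the MDSC arrays (adjusted p 0.0821 to 0.0854). It was called without either ESC array, at 8.13 without passage 12 and 2.34 without passage 15 (adjusted p = 0.000879 and 0.00596). Genes of this family are close copies of each other, so signal of one on another's probe cannot be told apart here.

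The RNA sensor gene Ifih1 encodes MDA5, which detects long double-stranded RNA. It stood at 0.39 and -1.06 in the WT isolations, -1.05 and -0.10 in those labelled Mstn-null and -2.88 and -4.12 in ESC. The groups did not overlap, and the difference was 3.05 ± 0.60 (adjusted p = 0.01; 2.43 and 0.0607 without ESC passage 15). Dhx58, the gene of LGP2, which tunes the other RNA sensors, read -0.15 and -2.16 in the WT isolations, -1.40 and -0.48 in those labelled Mstn-null and -3.02 and -3.17 in ESC, a difference of 2.05 ± 0.62 (adjusted p = 0.0384) that was not called without either Mstn-null-labelled array or either ESC array (adjusted p 0.0531 to 0.151). Ddx58, the gene of RIG-I, which detects short RNA with a 5′ triphosphate, did not pass, at 0.47 ± 0.28 (adjusted p = 0.203), with levels from 1.96 to 3.12 over the 6 arrays. Zbp1, a sensor of left-handed nucleic acid, ranged over 1.99 and -1.60 in the WT isolations, -0.17 and 1.58 in those labelled Mstn-null and -1.38 and -1.66 in ESC. WT isolation 2 sat among the ESC arrays while WT isolation 1 was the highest of all, and the difference of 1.96 ± 1.1 did not pass (adjusted p = 0.178, or 0.0211 without WT isolation 2).

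Of the 7 genes of the Isg15, ubiquitin and ADP-ribosyl systems 2, Trim30a and Herc6, were higher in MDSC, against 28.3% of all features. The other 5 did not pass. Trim30a, a RING-finger protein that restrains Toll-like receptor signalling, read -0.63 and -3.32 in the WT isolations, -2.28 and -0.64 in those labelled Mstn-null and -6.21 and -7.06 in ESC. Both ESC arrays were below background, and Trim30a was at least 10.3-fold brighter in MDSC (adjusted p = 0.00818, or 0.0563 without ESC passage 15). Herc6, the main ligase that attaches Isg15 in the mouse, gave -2.38 and -3.13 in the WT isolations, -2.91 and -2.81 in those labelled Mstn-null and -4.53 and -6.91 in ESC. Its difference was 2.91 ± 0.69 (adjusted p = 0.0185); without WT isolation 1 the adjusted p was 0.0504. A second Herc6 probe, below background on both ESC arrays, was at least 4.02-fold brighter in MDSC.

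Isg15 itself, the ubiquitin-like modifier, varied more among MDSC arrays than between the cell types. It was at 4.57 and 0.79 in the WT isolations, 1.77 and 3.64 in those labelled Mstn-null and 1.20 and 0.52 in ESC. WT isolation 1 was the highest array and WT isolation 2 lay between the ESC arrays, and the difference of 1.83 ± 1.17 did not pass (adjusted p = 0.227, or 0.0298 without WT isolation 2). Usp18, the protease that removes Isg15 and blocks the type I receptor, read 1.04 and -1.96 in the WT isolations, -1.36 and -0.47 in those labelled Mstn-null and -2.73 and -4.58 in ESC. Its difference was 2.97 ± 1.00 (adjusted p = 0.0521), and it was called without WT isolation 2 (adjusted p = 0.0155). The ADP-ribosyltransferase genes Parp9 and Parp14 and the Parp9 partner Dtx3l, a ubiquitin ligase, differed by 0.62 ± 0.57, 0.35 ± 0.48 and 0.024 ± 0.54, with adjusted p of 0.388, 0.555 and 0.972. Parp9 was called without WT isolation 2, at an adjusted p of 0.0268. The value for Dtx3l turned below 0 without WT isolation 1 (-0.41), Mstn-null-labelled isolation 2 (-0.16) or ESC passage 12 (-0.18) and as a mean over its probes (-0.33).

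Of the 10 antiviral effectors tested 3 were higher in MDSC and 1, Oas3, was lower, against 28.3% and 31.4% of all features. The Ifit genes encode proteins that bind viral RNA with foreign 5′ ends. Ifit3 read 1.80 and -0.51 in the WT isolations, -0.50 and 0.11 in those labelled Mstn-null and -3.03 and -5.46 in ESC, with every MDSC array above both ESC arrays and a difference of 4.47 ± 0.94 (adjusted p = 0.0125; 3.25 and 0.0626 without ESC passage 15). Ifit2, with -1.41 and -1.26 in the WT isolations, -1.89 and -1.90 in those labelled Mstn-null and -2.71 and -3.40 in ESC, was one of the steadiest genes of the set, its 2 WT arrays 0.15 apart. It differed by 1.44 ± 0.23 (adjusted p = 0.00542). Ifit1 gave 0.69 and -2.45 in the WT isolations, -2.05 and -0.61 in those labelled Mstn-null and -2.83 and -5.33 in ESC. WT isolation 1 was the highest array and WT isolation 2 the lowest of the MDSC arrays, and 2.97 ± 1.17 did not pass (adjusted p = 0.0798, or 0.0345 without WT isolation 2). Eif2ak2, the gene of PKR, which shuts down translation on binding double-stranded RNA, read 0.47 and -0.24 in the WT isolations, 0.13 and 0.37 in those labelled Mstn-null and -1.0 and -1.01 in ESC. The groups did not overlap, and the difference was 1.19 ± 0.24 (adjusted p = 0.0113, or 0.0547 and 0.0566 without ESC passage 12 or 15).

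The 2′-5′-oligoadenylate synthetases, which make the small messenger that activates RNase L, had lower mean levels in MDSC. Of the 3 genes 1 passed, where 31.4% of all features were called lower. Oas3 read -4.76 and -5.83 in the WT isolations, -5.43 and -3.88 in those labelled Mstn-null and -2.92 and -3.18 in ESC. Only 1 of 4 MDSC arrays was above background against both ESC arrays, and the difference was -1.92 ± 0.54 (adjusted p = 0.0299). It was not called without WT isolation 2 (adjusted p = 0.0626) or either ESC array (0.133 and 0.103), nor with another background correction (-0.49, adjusted p = 0.0694). Oas2 gave -1.92 and -4.04 in the WT isolations, -2.23 and -0.55 in those labelled Mstn-null and -0.47 and -1.19 in ESC, a difference of -1.35 ± 0.78 (adjusted p = 0.186). For Oas1a the levels were 0.60 and -1.96 in the WT isolations, 0.83 and 2.33 in those labelled Mstn-null and 2.96 and 1.54 in ESC, a difference of -1.80 ± 0.91 (adjusted p = 0.143), which was called lower, at -2.44, without WT isolation 1 (adjusted p = 0.0472). In all 3 genes WT isolation 2 was the lowest array of the 6. Oas genes lie in a cluster of near copies, and their probes may not separate them.

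The Oas-like genes were spread among the MDSC arrays as well. Oasl1, an inhibitor of Irf7 translation, stood at 0.52 and -1.53 in the WT isolations, -2.31 and -1.19 in those labelled Mstn-null and -1.49 and -1.74 in ESC, and Oasl2, a synthetase-like protein, at 1.39 and -2.12 in the WT isolations, -1.04 and 0.26 in those labelled Mstn-null and -1.68 and -1.64 in ESC. Their differences of 0.49 ± 0.65 and 1.28 ± 1.03 did not pass (adjusted p = 0.545 and 0.323); Oasl1 turned to -0.024 without WT isolation 1, and Oasl2 was called higher without WT isolation 2 (adjusted p = 0.0207). Cmpk2, a nucleotide kinase next to Rsad2, was above background on WT isolation 1 and the ESC arrays only, with -2.89 and -5.31 in the WT isolations, -5.31 and -4.49 in those labelled Mstn-null and -4.64 and -4.59 in ESC. Its difference of 0.11 ± 0.71 (adjusted p = 0.899) turned to -0.49 without WT isolation 1 and to -0.089 without Mstn-null-labelled isolation 2. Rsad2, the gene of viperin, which makes a chain-terminating nucleotide, was above background on WT isolation 1 alone, at -1.99, and between -6.81 and -4.34 on the other arrays.

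The 7 genes Irf7, Ifi204, Herc6, Usp18, Ifit1, Ifit3 and Ifi44 were above background on 1 of the 2 ESC arrays, passage 12, so their passage 15 level is a reading at background. Among 7 accessory antiviral genes 3, Samd9l, Ifi35 and Rtp4, were higher in MDSC and 0 lower, against 28.3% and 31.4% of all features. Samd9l, a brake on cell growth and translation, read 2.69 and 1.60 in the WT isolations, 1.69 and 2.52 in those labelled Mstn-null and -0.65 and -1.01 in ESC, a difference of 2.95 ± 0.41 (adjusted p = 0.00343). Ifi35, a leucine-zipper protein that pairs with Nmi, read 1.99 and 1.07 in the WT isolations, 1.42 and 1.84 in those labelled Mstn-null and -0.28 and -0.39 in ESC, a difference of 1.91 ± 0.31 (adjusted p = 0.0053). In both genes the 4 MDSC arrays lay clear of the 2 ESC arrays. Rtp4, a chaperone of receptor trafficking, gave 3.10 and -0.12 in the WT isolations, 0.93 and 2.28 in those labelled Mstn-null and -1.10 and -2.68 in ESC. The difference was 3.43 ± 1.05 (adjusted p = 0.0397), and it was not called without either Mstn-null-labelled array (adjusted p = 0.059 and 0.0942) or either ESC array (0.0778 and 0.198).

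The other 4 accessory genes did not pass. Ifi44, a marker of type I exposure, had the widest gap between WT isolations of all 42 genes, with 0.24 and -3.95 in the WT isolations, -1.82 and 0.27 in those labelled Mstn-null and -4.28 and -6.61 in ESC. Its difference was 4.13 ± 1.44 (adjusted p = 0.0566, or 0.0186 without WT isolation 2). Bst2, or tetherin, which holds budding virus on the cell surface, read 3.53 and 1.17 in the WT isolations, 1.43 and 2.77 in those labelled Mstn-null and 3.65 and 3.76 in ESC. No MDSC array exceeded the ESC arrays, the difference was -1.48 ± 0.75 (adjusted p = 0.147), and Bst2 was called lower without WT isolation 1 (-2.07, adjusted p = 0.0266). Xaf1, a pro-apoptotic protein, read 1.58 and -1.61 in the WT isolations, -0.96 and -0.0061 in those labelled Mstn-null and -1.60 and -4.33 in ESC, a difference of 2.71 ± 1.18 (adjusted p = 0.103, or 0.0411 without WT isolation 2). Sp100, a nuclear body protein, was nearly flat, from -2.31 to -1.76, with a difference of 0.41 ± 0.16 (adjusted p = 0.072).

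Of the 8 interferon-inducible GTPases, which coat pathogen-holding vacuoles, Irgm1 was higher in MDSC and Gbp2b was lower, against 28.3% and 31.4% of all features. The other 6 did not pass. Irgm1, a regulator of the other immunity-related GTPases, gave 3.08 and 1.48 in the WT isolations, 1.39 and 2.38 in those labelled Mstn-null and -0.26 and 0.75 in ESC. Its difference of 1.84 ± 0.60 (adjusted p = 0.0465) was called with all 6 arrays and without WT isolation 2, and lost without each of the other 5 (adjusted p 0.0561 to 0.223). The guanylate-binding protein gene Gbp2b, known as Gbp1 in older annotation, read -6.33 and -6.89 in the WT isolations, -1.27 and -1.30 in those labelled Mstn-null and -1.04 and 0.23 in ESC. Both WT arrays were below background and both arrays labelled Mstn-null lay just below both ESC arrays. A second Gbp2b probe gave -6.37 and -6.53 in the WT isolations, -1.41 and -1.36 in those labelled Mstn-null and -1.25 and 0.04 on the ESC arrays. Over all MDSC arrays Gbp2b was called lower (adjusted p = 0.00199), with 2 of those 4 arrays below background, and by labelled genotype ESC were at least 21.5-fold brighter than WT MDSC (adjusted p = 0.00103), while MDSC labelled Mstn-null differed from ESC by -0.88 ± 0.46 (adjusted p = 0.166).

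Igtp, another immunity-related GTPase, stood at 1.19 and -1.32 in the WT isolations, -1.11 and -0.071 in those labelled Mstn-null and -0.67 and -1.19 in ESC, and Gbp3 at 0.52 and -2.26 in the WT isolations, -0.95 and -0.55 in those labelled Mstn-null and -1.86 and -0.44 in ESC. Both ranges of MDSC levels spanned the ESC levels, the differences of 0.60 ± 0.77 and 0.35 ± 0.87 did not pass (adjusted p = 0.526 and 0.748), and without WT isolation 1 they turned to -0.028 and -0.35. Gbp2 differed by -0.42 ± 0.41, Gbp6 by -0.73 ± 0.51, Gbp7 by 0.43 ± 0.50 and Iigp1 by 0.61 ± 0.40, none of them called (adjusted p 0.238 to 0.484). A dimmer Iigp1 probe, below background on both ESC arrays, was at least 4.24-fold brighter in MDSC (adjusted p = 0.0128 when each probe was a feature of its own), and a dimmer Gbp6 probe was above background on 1 array only. Without WT isolation 1 the brighter Gbp6 probe was called lower (adjusted p = 0.044). Guanylate-binding protein genes also sit in clusters of near copies.

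**Figure D2:**
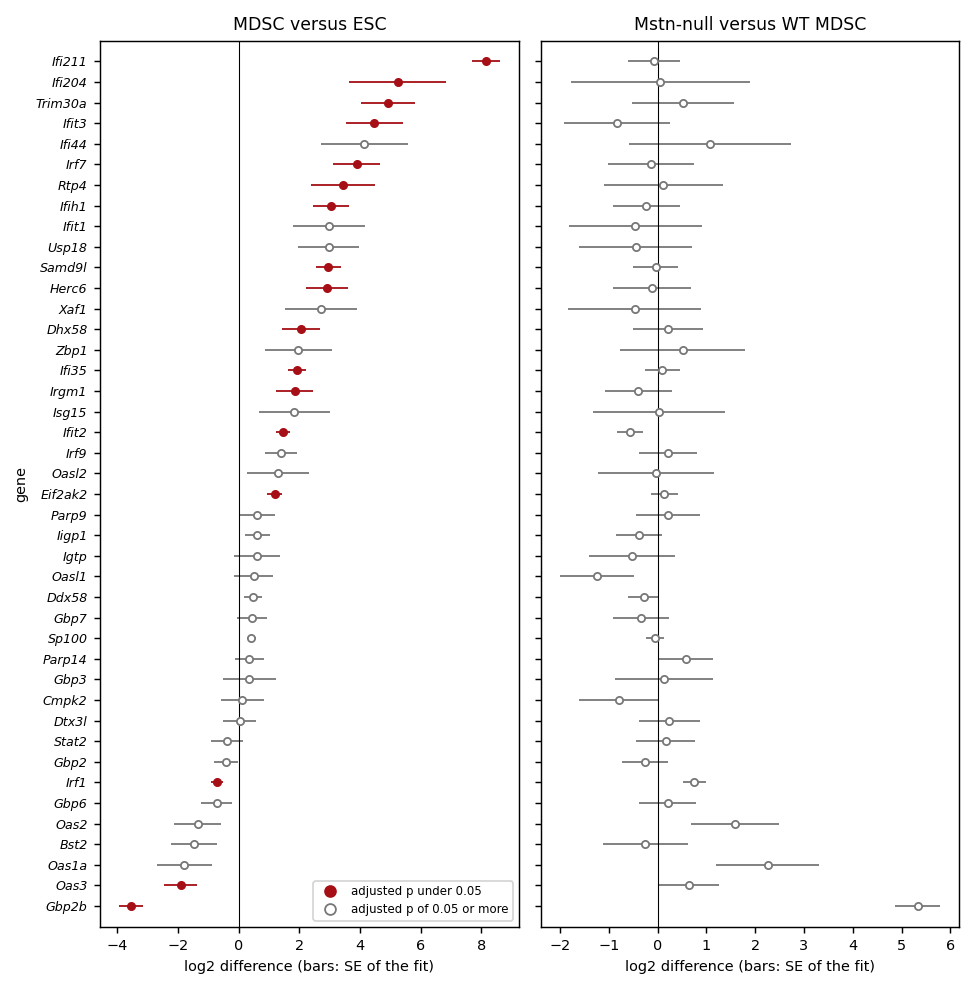
Difference in log2 level for each of the 42 tested genes, MDSC minus ESC on the left (4 against 2 arrays) and arrays labelled Mstn-null minus WT arrays on the right (2 against 2), with bars for the standard error of the limma fit. Filled red points have an adjusted p under 0.05: 17 genes on the left and 0 on the right, where Gbp2b lies farthest out, drawn at its fitted 5.33 although both WT readings were below background and give only a bound, at least 11.7-fold.

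By labelled genotype, with the same ESC arrays serving both comparisons, 10 genes were higher and 3 lower in WT MDSC than in ESC, against 27.1% and 25.9% of all features, and 10 were higher and 0 lower in MDSC labelled Mstn-null, against 23.3% and 30.8%. The medians of the 42 differences were 1.20 and 1.21, against 0.031 and -0.12 over all features. The WT median was 0.28 without WT isolation 1, 2.13 without WT isolation 2 and 0.86 over the genes above background on all arrays, and the Mstn-null-labelled median was 0.77 without the second isolation and 0.64 over those genes. Ifi211 was at least 168-fold brighter in WT MDSC and at least 160-fold in MDSC labelled Mstn-null. Samd9l differed by 2.97 ± 0.47 and 2.93 ± 0.47, Ifi35 by 1.86 ± 0.35 and 1.96 ± 0.35, and Ifit2 by 1.72 ± 0.27 and 1.16 ± 0.27, each called on both sides. Ifih1 (3.16 and 2.93), Irf7 (3.95 and 3.82), Ifit3 (4.89 and 4.05), Trim30a (at least 8.64-fold and at least 12.4-fold brighter), Herc6 (2.96 and 2.86) and Eif2ak2 (1.12 and 1.25) were called on both sides too. These calls take their spread from all 3 groups. In limma fits of only the groups compared Herc6 was called on neither side (adjusted p = 0.0567 for WT and 0.0529 for Mstn-null-labelled MDSC). Irf1 (-1.11 and -0.35), Oas3 (-2.24 and -1.60) and Gbp2b were called lower on the WT side only, and of these differences between genotypes none passed the test given below. Both WT readings of Oas3 were below background, so its -2.24 is a fitted value where the readings give only a bound. The WT counts of 10 and 3 became 5 and 8 without WT isolation 1, 23 and 2 without WT isolation 2, 9 and 1 without ESC passage 12, and 5 and 1 without ESC passage 15. The counts of 10 and 0 became 5 and 0 without the first Mstn-null-labelled isolation, 2 and 1 without the second, 10 and 1 without ESC passage 12, and 6 and 0 without ESC passage 15.

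The interferon-stimulated genes also moved together between isolations of 1 genotype. WT isolation 1 was above WT isolation 2 in 40 of the 42 tested genes, with a median gap of 1.77 and a range of -0.27 to 4.20. In 31 genes the gap was above 1 on the log2 scale, against 5.75% of all features tested, and in 0 it was below -1; over all features the median gap was -0.067. On the arrays labelled Mstn-null isolation 2 was above isolation 1 in 36 of the 42, with a median gap of 0.82, and 14 were above 1, against 3.74% of all features. Of the ESC arrays passage 12 was above passage 15 by a median of 0.31, with 12 genes above 1, against 7.55% of all features, and 4 below -1. Each of these gaps is between 2 single arrays, so it has no replicate and no test. Among the 4 MDSC arrays 28 of the 42 genes were highest on WT isolation 1 and lowest on WT isolation 2, against 7.05% of all features.

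**Figure D3:**
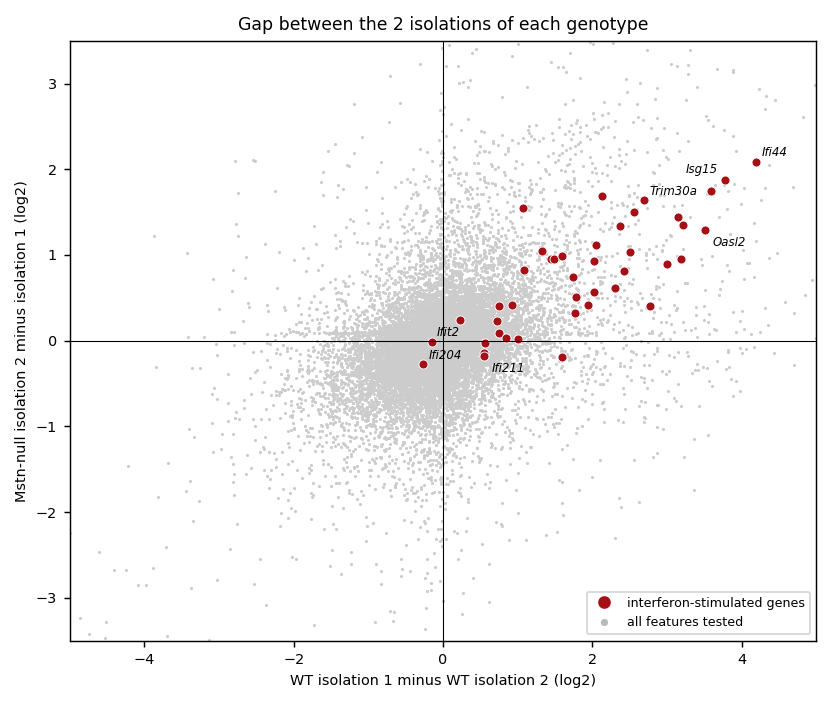
Gap between the 2 WT isolations on the horizontal axis and between the 2 isolations labelled Mstn-null on the vertical axis, in log2 units, for the 42 tested interferon-stimulated genes (red) and all 25057 features tested (grey; 52 lie outside the window). Most red points lie right of 0 and above 0, from Ifi204 near the origin to Ifi44 at 4.20 and 2.09.

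By role, the median gap was highest among the accessory genes (2.36 over 7 genes, with Ifi44 at 4.20 and Rtp4 at 3.22) and the antiviral effectors (2.21 over 10 genes, with Oasl2 at 3.51), and Isg15 and Zbp1 reached 3.78 and 3.59. The nucleic acid sensors had a median of 1.1 over 6 genes. Among them the DNA-binding Ifi204 and Ifi211 had WT gaps of -0.27 and 0.55. Ifit2 (-0.15) and Sp100 (0.22) were also nearly level. Of the 18 genes tested that had an ISRE in the promoter window described above the median WT gap was 1.69, and of the 14 with a window but no ISRE 1.75.

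Markers of other cell types moved between the same arrays. The 7 tested muscle markers had mean levels of 3.14 and 0.47 on WT isolations 1 and 2, 0.07 and -0.53 in those labelled Mstn-null and -2.59 and -2.45 on the ESC arrays, with all 7 higher on WT isolation 1 than on WT isolation 2 (Myh3 5.12 and 2.26, Chrna1 4.23 and 1.08, Acta1 5.98 and 3.97). The 17 tested macrophage and myeloid markers had means of -0.15 and -2.28 in the WT isolations, 1.18 and 3.45 in those labelled Mstn-null and -3.79 and -3.27 on the ESC arrays. All 17 were higher on WT isolation 1 than on 2, and 16 were higher on Mstn-null-labelled isolation 2 than on 1. Their summed signal, in multiples of the array's 75th percentile, was 72.9 and 51.1 in the WT isolations, 115.9 and 381.8 in those labelled Mstn-null and 19.2 and 13.2 on the ESC arrays, and 16, 13, 17, 17, 9 and 12 of the 17 were well above background in that order. Lyz2, a lysozyme gene of macrophages, read 1.15 and -0.40 in the WT isolations, 3.42 and 5.59 in those labelled Mstn-null and -7.46 and -4.50 in ESC. The 9 fibroblast markers had means of 5.67 and 4.35 in the WT isolations and 5.47 and 5.89 in those labelled Mstn-null. On the ESC arrays their means were 2.30 and -0.83. Of them 8 were higher on WT isolation 1 than on 2 and 7 on Mstn-null-labelled isolation 2 than on 1. All 9 were higher on ESC passage 12 than on passage 15. Of the 6 tested endothelial markers all 6 were higher on WT isolation 1 than on 2, and 1 on Mstn-null-labelled isolation 2 than on 1. The collagen gene Col3a1 read 3.34 on passage 12 and 0.051 on passage 15, and Col1a2 read 4.94 and 3.49; the labels call the ESC colonies feeder free and the growth protocol describes fibroblast feeders removed by brief plating. The 7 tested lymphocyte markers had means from -3.19 to -2.89 over the 4 MDSC arrays and -0.74 and -0.95 on the ESC arrays. Of them 0 were called higher in MDSC and 4 lower, against 28.3% and 31.4% of all features. The list was mixed: Cd3e (1.34 to 1.93 over the MDSC arrays) and Nkg7 (1.36 to 1.52) were well above background on all 6 arrays. The dendritic list, which holds Bst2, had means of -0.53 and -0.94 in the WT isolations, -0.28 and -0.0016 in those labelled Mstn-null and -0.73 and -0.81 on the ESC arrays. Of its 7 tested genes 2 were higher in MDSC and 0 lower, against 28.3% and 31.4% of all features. The 2 were Tcf4, by 1.41 (adjusted p = 0.0189), and Itgax (adjusted p = 0.0121), which was above background only in the isolations labelled Mstn-null. Siglech was not called, at 6.15 and 6.62 in the WT isolations, 6.69 and 6.42 in those labelled Mstn-null and 7.69 and 6.70 in ESC. Xcr1 was below background on all 6 arrays and Clec9a on 5. The part of these cells in the interferon-stimulated levels was not tested. The interferon-stimulated genes had means of 0.52 and -1.31 in the WT isolations and -0.61 and 0.16 in those labelled Mstn-null. Their highest MDSC array was WT isolation 1, as for the muscle markers, while macrophage and fibroblast markers were highest on Mstn-null-labelled isolation 2. Their lowest was WT isolation 2, as for the macrophage and fibroblast markers, while muscle markers were lowest on Mstn-null-labelled isolation 2.

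**Figure D4:**
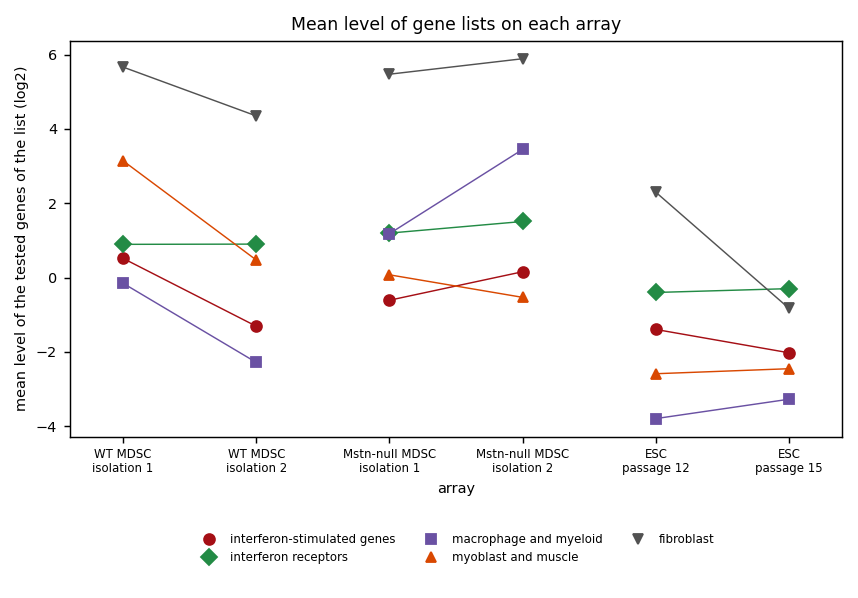
Mean log2 level of the tested genes of each list on each array, with a line joining the 2 arrays of a group; lists are compared across arrays, not with each other. The interferon-stimulated genes fall from 0.52 to -1.31 between the WT isolations, as do the muscle, macrophage and fibroblast markers, while the interferon receptors stay at 0.89 and 0.90.

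Between the arrays labelled Mstn-null and the WT arrays no interferon-stimulated gene was called, in either direction (0 of 42; limma), against 0% of all features. At an unadjusted p under 0.05 there were 2, Gbp2b and Irf1, against 14.7% of all features. The median of the 42 differences was -0.0013, against -0.12 over all features, and its sign turned on single arrays: it was 1.02 without WT isolation 1, -0.78 without WT isolation 2, 0.29 without the first Mstn-null-labelled isolation and -0.29 without the second. Apart from Gbp2b the differences ran from -1.25 (Oasl1) to 2.25 (Oas1a), and 21 of the 42 lay above 0, against 36.7% of all features. The median standard error was 0.70, against 0.24 over all features. Gbp2b came nearest to a call: the arrays labelled Mstn-null were at least 11.7-fold brighter (adjusted p = 0.0554), where the smallest adjusted p of any feature was 0.0548. Irf1 differed by 0.76 ± 0.23 (adjusted p = 0.237), Oas1a by 2.25 ± 1.05 (0.426), Oas2 by 1.59 ± 0.90 (0.51), Oasl1 by -1.25 ± 0.76 (0.533) and Isg15 by 0.024 ± 1.36 (0.996). Ifi44 differed by 1.08 ± 1.66 (adjusted p = 0.811), and turned to -1.02 without WT isolation 2. A second Xaf1 probe went apart from the main one. It read -4.18 and -5.91 in the WT isolations, 1.14 and 2.11 in those labelled Mstn-null and -0.78 and -1.66 on the ESC arrays, a difference between genotypes of 6.67 ± 0.70 (adjusted p = 0.0611 with each probe a feature of its own), against -0.47 ± 1.36 for the main probe. WT isolation 2 was below background on it, so that value rests in part on a reading at background. That probe was singled out after its values were seen.

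Upstream of these genes, the parts of the pathway that receive and pass on interferon were mostly higher in MDSC than in ESC. Of the 6 receptor chains 5 were higher in MDSC and 1 lower, where 28.3% of all features were higher and 31.4% lower, with a median of -0.028; the same shares stand beside each list that follows. The type I chains Ifnar1 and Ifnar2 differed by 1.65 ± 0.16 and 2.31 ± 0.18 (adjusted p = 0.00121 and 0.000787) and the type II chains Ifngr1 and Ifngr2 by 2.74 ± 0.14 and 2.77 ± 0.21 (adjusted p = 0.000276 and 0.000683). Ifngr1 read 3.10 and 3.05 in the WT isolations, 3.42 and 3.53 in those labelled Mstn-null and 0.47 and 0.60 in ESC, with no overlap. The type III receptor was split: Il10rb, the chain it shares with interleukin-10 family receptors, was higher by 3.13 ± 0.25 (adjusted p = 0.000798), and Ifnlr1, its specific chain, was lower, at -3.75 ± 0.17 (adjusted p = 0.00023), reading -4.94 and -4.59 in the WT isolations, -4.32 and -4.18 in those labelled Mstn-null and -0.86 and -0.65 in ESC, above background on 1 of the 4 MDSC arrays. Between the WT isolations the receptor chains moved by -0.34 to 0.39, where the interferon-stimulated genes moved by a median of 1.77.

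Of 10 tested kinases, Stat and Irf factors 7 were higher in MDSC and 0 lower, against 28.3% and 31.4% of all features. The receptor kinases Jak1 and Jak2 differed by 2.26 ± 0.18 and 1.90 ± 0.18 (adjusted p = 0.000777 and 0.00117), and Tyk2, the third, by -0.42 ± 0.24 (adjusted p = 0.19). Irf2 and Stat3 were higher by 3.02 ± 0.29 and 1.85 ± 0.21 (adjusted p = 0.00129 and 0.00189). Tyk2 and Irf8 were named after their values were seen. Irf8, a factor of myeloid cells, did not pass (adjusted p = 0.346) and read -2.06 and -4.49 in the WT isolations and -0.35 and 1.70 in those labelled Mstn-null, in the order of the macrophage markers. Among 9 inhibitors 5 were higher (Socs1, which blocks the kinases, by 1.30; Ptpn1, Ptpn11, Pias1 and Irf2bp2) and 1 was lower, the phosphatase gene Ptpn2, at -0.83 ± 0.15 (adjusted p = 0.00724), against the same 28.3% and 31.4%.

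**Figure D5:**
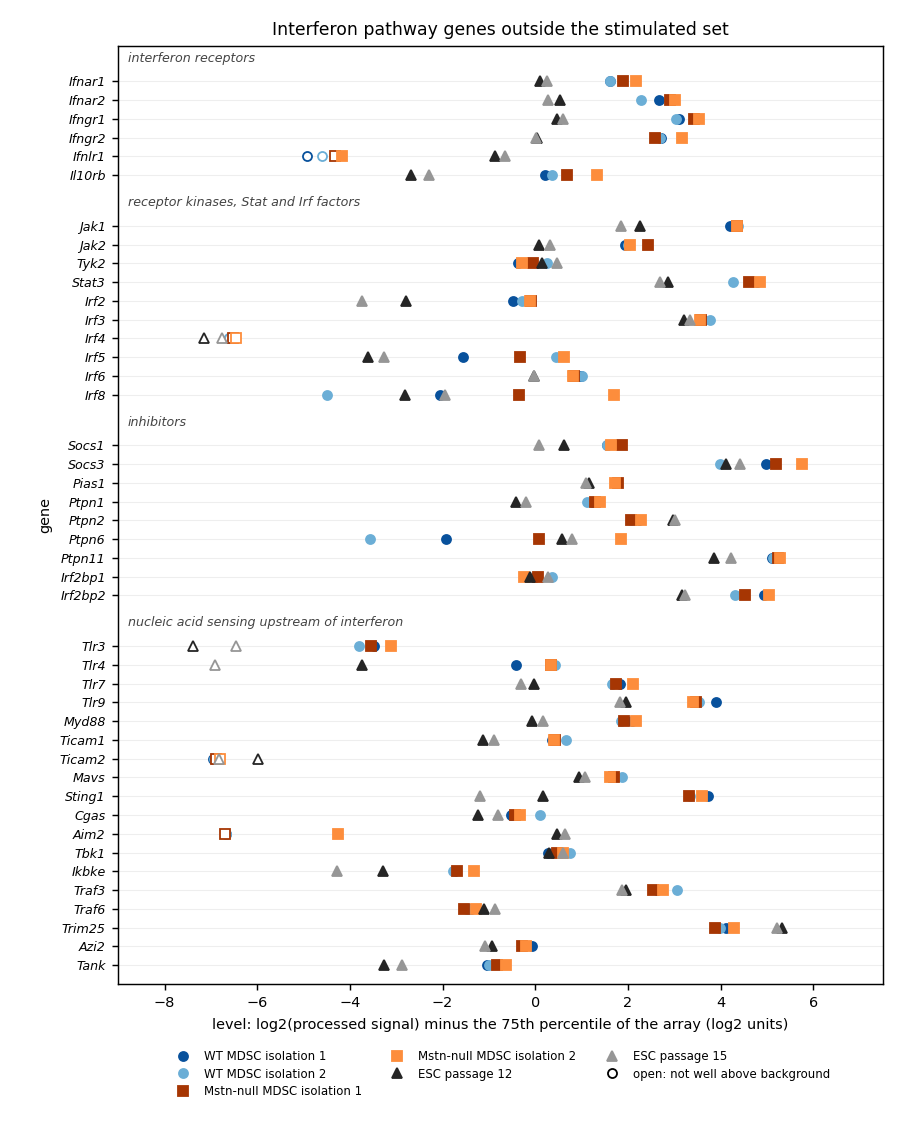
Levels on each of the 6 arrays, in log2 units relative to the array's 75th percentile, of receptor chains, kinases and transcription factors, inhibitors and sensing genes upstream of interferon; filled points are well above background. Ifnar1, Ifnar2, Ifngr1, Ifngr2 and Il10rb have all 4 MDSC arrays above both ESC arrays, and Ifnlr1, Aim2 and Trim25 have them below.

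The genes that detect nucleic acid and lead to interferon were also mostly higher in MDSC, 13 of 17 tested, with 2 lower, against 28.3% and 31.4% of all features. Sting1, the adaptor of cytosolic DNA sensing (Tmem173 in older annotation), read 3.73 and 3.35 in the WT isolations, 3.32 and 3.60 in those labelled Mstn-null and 0.18 and -1.19 in ESC, a difference of 4.01 ± 0.42 (adjusted p = 0.00157). Its partner enzyme Cgas differed by 0.74 ± 0.24 (adjusted p = 0.0491), the Toll-like receptor adaptor Myd88 by 1.96 ± 0.17 (adjusted p = 0.00101) and Tlr4, the receptor of bacterial lipopolysaccharide, by 5.51 ± 0.91 (adjusted p = 0.00587), with ESC passage 15 below background. Tlr3, which senses double-stranded RNA in endosomes, was below background on both ESC arrays and at least 3.03-fold brighter in MDSC (adjusted p = 0.00119). Mavs, the adaptor of Ifih1 and Ddx58, differed by 0.70 ± 0.15 (adjusted p = 0.0129). The 2 that were lower in MDSC were Aim2, a DNA sensor of the inflammasome, at -6.68 and -6.67 in the WT isolations, -6.70 and -4.25 in those labelled Mstn-null and 0.47 and 0.63 in ESC and above background on 1 of the 4 MDSC arrays, and Trim25, the ligase that activates RIG-I, at -1.20 ± 0.18 (adjusted p = 0.00401). Tbk1, the kinase that phosphorylates Irf3, did not pass, at 0.077 ± 0.20 (adjusted p = 0.758).

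The interferon genes themselves were dim. Of 21 listed, 16 had a probe and 9 were tested. Ifng, Ifne, Ifnk, Ifna4, Ifna11 and Ifna16 were not well above background on any array, and Ifnb1 was on 1, isolation 1 of the arrays labelled Mstn-null, at -4.20. Ifnab and Ifna13 were called higher in MDSC, by 0.52 ± 0.16 and, for Ifna13, at least 2.07-fold (adjusted p = 0.0411 and 0.00465); alpha interferon genes are near-identical copies, so these probes may report other members. The gaps of the 9 tested between WT isolations, isolation 1 minus isolation 2, ran from -0.49 to 0.0094. Of the 9 gaps 1 was above 0, against 41.7% of all features. Their median was -0.34, against -0.067 over all features.

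Of 72 further interferon-stimulated genes outside the 44, 54 were tested, with 25 higher in MDSC than in ESC and 9 lower, and a median difference of 0.97, against 28.3%, 31.4% and -0.028 over all features. Lgals9, a galectin, was higher by 3.35 ± 0.20 (adjusted p = 0.000423) and Mlkl, the executor of necroptosis, by 3.67 ± 0.17 (adjusted p = 0.000223). Tdrd7, a Tudor-domain protein, was higher by 3.08 ± 0.21 and Tmem140 by 4.64 ± 0.39 (adjusted p = 0.000549 and 0.000927). The membrane proteins that block virus entry, named after their values were seen, were split, with Ifitm3 higher by 1.73 ± 0.22 (adjusted p = 0.00282) and Ifitm1, a gene known to be high in early embryonic cells, lower, at -6.84 ± 0.60 (adjusted p = 0.00102). The median gap between WT isolations was 0.62, with 20 of the 54 above 1 and 0 below -1. No gene of the receptor, signalling, inhibitor, sensing, interferon or further stimulated lists was called between the arrays labelled Mstn-null and the WT arrays.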

How the data were processed

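The deposited files are scanner output, 1 per sample, written by Agilent's Feature Extraction software (10.7.1.1 per the file headers, 9.1 per the submitters' processing notes). The unit used is the processed signal intensity, background-subtracted by that software per the file headers; no depth applies to arrays, and their number limits the precision. Spots flagged as outliers were dropped, log2 was taken and the 75th percentile of the array's non-control spots subtracted; spots of a probe were averaged. Of 55681 probes 26413 were named by 1 RefSeq symbol (GRCm38.p6) and 29268 were left unnamed. A gene was read from its brightest probe over the 6 arrays and tested where every array of at least 1 group passed the scanner flag for background. Fits used limma 3.58.1 in R 4.3.3 with 3 group means over all 6 arrays (residual df 3), two-sided, threshold 0.05. They were tested on simulated data with 25057 features and changes of size 1, 2 and 4 on the log2 scale. Between MDSC and ESC 1 of 67, 42 of 67 and 60 of 66 were called, and between genotypes 0 of 67, 35 of 67 and 59 of 66. Changes of size 1 were thus almost never found in the simulation. It changed far fewer features than the 7086 called higher and 7860 called lower between MDSC and ESC. Its shares therefore do not carry over to that comparison. Promoter motifs and tables used Python 3.11.15. Replicate numbers mark isolations and pair no animals, so no block was used. The members, lists and motifs were chosen with earlier results of these data known. Array values are given for genes called in any comparison or with arrays of a group over 2 apart, and other lists name at most 4 genes with the smallest adjusted p beside receptors, sensors and interferons; 1 further gene the rule names is not reported here. Background correction, normalization, dim-probe filter, probe choice, slide, prior and each array were varied.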

Additional observations from a re-analysis of the deposited data

How the results depend on the processing

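Over 19 alternatives, 1292 gene values were recomputed: 1126 kept direction and side of the threshold, 92 lost a call, 58 gained one and 16 turned sign. Ifi211, Ifi35, Ifit2 and Samd9l were called higher in MDSC than in ESC under every alternative that tested them, and Gbp2b lower in WT MDSC likewise. The filter that keeps only genes above background on all arrays did not test Ifi211 or Gbp2b. With only genes above background on all arrays, which tests 29 of the set, the counts higher and lower were 8 and 1 (MDSC) and 6 and 1 (WT). Of the 19853 features tested there, 6150 were higher and 6093 lower (MDSC) and 5920 and 5066 (WT). Averaging probes gave 1 lower gene (Irf1) on the Mstn-null-labelled side, and turned Dtx3l to -0.33 and Gbp6 to 0.86. On the second slide alone, which leaves out both WT arrays, 15 genes were higher and 0 lower in MDSC, against 5601 and 7353 of the 25057 features. Oasl1 was then at -0.14 and Cmpk2 at -0.28. Leaving out 1 array at a time gave 6 to 22 higher and 1 to 7 lower for MDSC, 5 to 23 and 1 to 8 for WT, and 2 to 15 and 0 to 1 for Mstn-null-labelled MDSC. Across those fits the differences ran from -0.41 to 0.46 for Dtx3l, -0.49 to 0.72 for Cmpk2, -0.024 to 1.00 for Oasl1, -0.36 to 1.05 for Gbp3, -0.028 to 1.23 for Igtp, -0.83 to 0.063 for Stat2 and -0.92 to 0.068 for Gbp2 (MDSC minus ESC), and from -1.02 to 3.18 for Ifi44 between genotypes. A group left with 1 array was assumed to vary like the others. Calls over all features also changed with each array left out, so the leave-out counts cannot separate changed genes from changed power.

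Between genotypes, a replicate block on the isolation numbers called 0 genes of the set. The first isolations of the 2 genotypes tended to deviate from their group means in opposite directions (r = -0.40 over the features tested). With 2 arrays a group the second isolations only mirror this, so it cannot show whether the isolations were paired. A block with the pairing crossed, added after seeing the data, also called 0. Quantile normalization called 11 features higher and 14 lower and a fit with each probe a feature, also added later, 5 probes higher and 3 lower, none of them of the set. Median centring moved the median over all features by 0.14 (MDSC against ESC), 0.22 (Mstn-null-labelled against ESC, where 6253 features were higher and 5473 lower, against 5849 and 7725) and 0.16 (between genotypes). A fit on only the groups compared has no separate value for MDSC against ESC, which uses all groups. Of the 43 genes with a probe, 7 were above background on 1 ESC array and 3 on none, which limits how far their differences can be read.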
